A study of Mus musculus with 12 samples.

Results

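Adh1 and 7 genes that make, carry, degrade or sense retinoic acid were examined in mural granulosa cells (MGCs, which line the follicle wall) and in cumulus cells (the granulosa cells that enclose the oocyte). Adh1 was picked for its fall in the cumulus cells of Sphk1/2gc-/- mice, so its values in that contrast are a description and carry no test. The others, Rdh10, Aldh1a1, Aldh1a2, Cyp26b1, Crabp2, Rara and Rxra, were chosen by what they do with retinol and retinoic acid. Earlier results of these data were known when they were chosen. All 8 genes were listed in both expression tables, which together hold 35856 genes.

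The cells came from immature female mice primed with eCG, 2 h after hCG, a hormone that acts as luteinizing hormone does and starts ovulation. The groups were WT mice (C57/BL6) and mice labelled Sphk1/2 knockout, which are Sphk1-/-; Sphk2 fl/fl; Fshr-Cre (Sphk1/2gc-/-). Sphk1 is thus deleted in every cell of these mice and Sphk2 where the Fshr promoter drives Cre, in granulosa cells. There were 3 libraries for each genotype and cell type, 12 in all, with 16100364 to 19761604 reads each, and the sources do not say whether a library is 1 animal or a pool, so the spread between libraries may be technical. Values are FPKM, fragments scaled to exon length and library size, and fold changes are differences of mean log2(FPKM + 1), which understate the change of weak transcripts.

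Retinol from the blood is oxidised in 2 steps, first to retinal by alcohol and retinol dehydrogenases and then to retinoic acid by the retinaldehyde dehydrogenases of the Aldh1a family. Retinoic acid is carried to the nucleus by binding proteins, acts on pairs of RAR and RXR receptors, and is removed by enzymes of the Cyp26 family. In the gonads it is best known as the signal that prompts germ cells to enter meiosis, and granulosa cells are one of the places where the ovary makes it.

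The targeted genes were read before the others. Sphk1 was at 1.68, 1.89 and 0.460 FPKM in WT MGCs, against 0.433, 0.557 and 0.104 FPKM in Sphk1/2gc-/- MGCs, with an overlap. In cumulus cells Sphk1 had 7, 6 and 8 reads in the WT libraries and 7, 43 and 51 reads in the libraries labelled Sphk1/2gc-/-, which goes against the label. Sphk2 did not separate the genotypes in either cell type. These are values of whole genes, in which exons left by the deletions still count. On the other strand, exons of Gm29292 overlap Sphk1, and exons of Dbp and Rpl18 overlap Sphk2. The library kit does not mark strand, so their reads may count here. The paper reported efficient depletion of Sphk2 in granulosa cells by immunofluorescence and western blotting. The markers of mural granulosa cells (Lhcgr, Cyp19a1, Cyp11a1 and Nppc) summed to 669 to 1524 FPKM in the 6 MGC libraries and to 39.2 to 136 FPKM in the 6 cumulus libraries. The list fixed for cumulus cells (Slc38a3, Npr2, Has2, Tnfaip6 and Ptx3) did not set WT cumulus cells (264 to 597 FPKM) above WT MGCs (907 to 1108 FPKM). Of the MGC libraries, Sphk1/2gc-/- library 3 stood apart, with correlations of 0.912 to 0.939 with the other 5 libraries against 0.960 to 0.986 between other pairs. WT cumulus library 3 had 5801 genes at a single read, against 1602 to 1861 in the other cumulus libraries.

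Adh1 (ENSMUSG00000074207, chromosome 3, 138260991 to 138290698, plus strand, GRCm38, 11 exon blocks) encodes a class I alcohol dehydrogenase that oxidises ethanol and retinol. The oligonucleotides below are those listed for its measurement by qRT-PCR, and they show which part of the transcript such a check reads. They lie at bases 254 to 272 and 458 to 478 of the 1492-base transcript Adh1-201 and span 225 bases.
Adh1 forward: gcaaagctgcggtgctatg
Adh1 reverse: tcacacaagtcaccccttctc

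In cumulus cells Adh1 was at 9.15, 2.67 and 5.46 FPKM in WT libraries 1 to 3 (329, 107 and 214 reads). In the libraries labelled Sphk1/2gc-/- it was at 0.856, 1.13 and 0.584 FPKM (36, 50 and 25 reads). The genotypes did not overlap, and WT library 1 was far above WT library 2. The log2 difference was −1.75, the value for which the gene was chosen. In bulk samples, fewer cells of a type and less RNA per cell cannot be told apart.

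In MGCs, which the choice of Adh1 did not use, the same direction was seen. Adh1 was at 6.11, 5.50 and 9.48 FPKM in WT MGCs, against 2.03, 1.75 and 4.06 FPKM in Sphk1/2gc-/- MGCs, again with no overlap. The means were 7.03 ± 2.15 and 2.61 ± 1.26 FPKM (SD, n = 3), a log2 difference of −1.17 (95% interval −1.87 to −0.47) that did not pass the test across all genes (limma, adjusted p = 0.294). With the replicate number as a block, as libraries of 1 number deviated together weakly in MGCs, the limma adjusted p was 0.149. The call depended on 1 library. Without Sphk1/2gc-/- library 3 the log2 difference was −1.44 (limma adjusted p = 0.0487), and without both libraries numbered 3 it was −1.24 (limma adjusted p = 0.00779). Calls rose over the whole table in these fits. They went from 1 higher and 5 lower to 116 and 54 of 15215 genes, and to 191 and 286 of 15433 genes. Each other single library left out gave a limma adjusted p of 0.298 to 0.877.

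By mean level Adh1 was ordered WT MGCs, WT cumulus cells (5.76 ± 3.25 FPKM), Sphk1/2gc-/- MGCs and Sphk1/2gc-/- cumulus cells (0.858 ± 0.275 FPKM). The first pair and the middle pair of this order overlapped, whereas every Sphk1/2gc-/- cumulus library lay below every Sphk1/2gc-/- MGC library. Levels of the cell types stand side by side without a test, as the tables were made separately. The library kit does not mark strand, and an exon of the antisense gene Gm16559 overlaps exons of Adh1. Gm16559 was at 0 to 0.834 FPKM in MGCs.

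**Figure D1:**
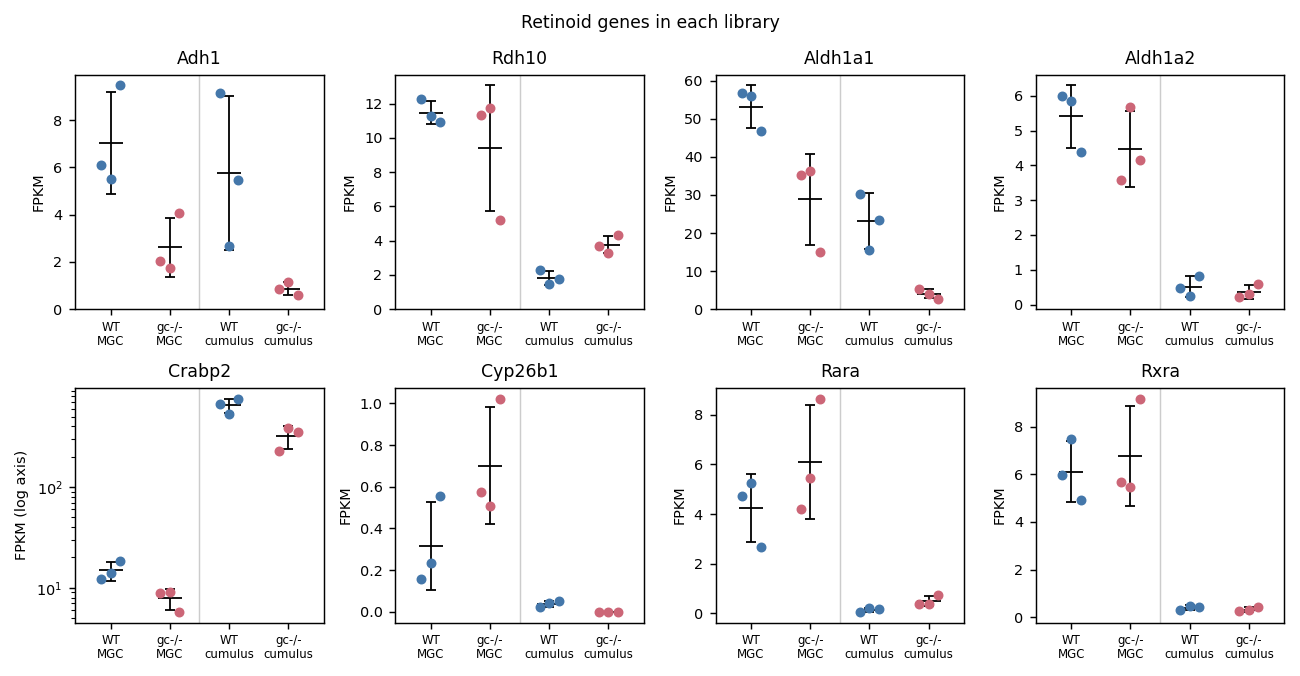
FPKM of the 8 genes in each library (points; WT blue, Sphk1/2gc-/-, shortened to gc-/-, red), with the mean and SD of 3 libraries as black bars; the axis of Crabp2 is logarithmic and the others are linear. Adh1, Aldh1a1 and Crabp2 lay below WT in all knockout libraries of both cell types, and Crabp2 was the only one of the 8 genes with a higher mean in cumulus cells than in MGCs of the same genotype.

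Markers of other cells moved with Adh1 in cumulus cells. Over all genes tested in cumulus cells, 3.85% were called as lower and 4.19% as higher. The mural granulosa list summed to 85.0 to 136 FPKM in WT, against 39.2 to 53.7 FPKM in Sphk1/2gc-/- cumulus libraries, and 3 of its 4 genes were called as lower. The theca list (Cyp17a1, Ptch1, Gli1 and Hhip; Insl3 is not listed) summed to 10.2 to 27.4 FPKM in WT, against 5.35 to 9.11 FPKM in Sphk1/2gc-/-, with Cyp17a1 called as lower of 2 genes tested. The erythrocyte list summed to 4.37 to 26.8 FPKM in WT, against 0.300 to 1.78 FPKM in Sphk1/2gc-/-. Of its 4 listed and tested genes Alas2 was called as lower, and Hba-a2 is not listed. The sum of the list for granulosa cells of any kind was also lower without overlap, at 3734 to 4816 FPKM in WT, against 2547 to 2905 FPKM in Sphk1/2gc-/-. Of its 8 genes 3 were called as lower. Inha, the most abundant, had a higher mean in Sphk1/2gc-/- (1630 FPKM in WT, 1870 FPKM in Sphk1/2gc-/-), as had Amh. The other genes of the list had lower means. Lower without overlap too was the oocyte sum, at 3.96 to 7.17 FPKM in WT, against 2.20 to 2.70 FPKM in Sphk1/2gc-/-. The same held for the endothelium sum, at 0.276 to 0.931 FPKM in WT, against 0.176 to 0.262 FPKM in Sphk1/2gc-/-. No gene was called in either of these lists, and no endothelium gene was high enough to be tested.

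A pair of lists had higher sums in the knockout cumulus libraries, without overlap. The cumulus list summed to 1022 to 1241 FPKM in Sphk1/2gc-/-, above the WT range given earlier, with 2 of 5 genes called as higher. The list for ovarian surface epithelium summed to 8.23 to 11.7 FPKM in WT, against 13.2 to 21.4 FPKM in Sphk1/2gc-/-. Of its 6 genes only 1 was tested, Krt8, and it was not called. Krt8 made up most of this sum, with a WT mean of 9.62 FPKM and a knockout mean of 15.3 FPKM. The highest mean of any other gene of the list was 0.400 FPKM, that of Krt19 in the knockout. Krt19, Msln, Upk1b and Upk3b overlapped between genotypes, whereas Lgr5 was higher in the knockout without overlap. The leukocyte list overlapped, at 2.03 to 43.2 FPKM in WT, against 5.76 to 50.2 FPKM in Sphk1/2gc-/-. The list for stroma and fibroblasts also overlapped between the genotypes, at 4.48 to 18.5 FPKM in WT, against 4.96 to 9.31 FPKM in Sphk1/2gc-/- cumulus libraries, with Lum called as lower and no other of the 5 genes tested. Adh1 and Aldh1a1 were highest in WT cumulus library 1 and lowest in library 2. The stroma, theca, endothelium, erythrocyte, oocyte and leukocyte lists shared this order. The granulosa, mural granulosa, cumulus and surface epithelium lists were highest in library 3. No gene of these lists that the table holds was at 0 in all 6 cumulus libraries. In MGCs the endothelium list was lower without overlap, as Adh1 was, at 12.4 to 16.1 FPKM in WT, against 7.94 to 9.76 FPKM in Sphk1/2gc-/-. The theca list (50.1 to 179.5 FPKM), the stroma list (67.0 to 151 FPKM) and the other lists overlapped between genotypes in MGCs, and no gene of any marker list was called there (limma). The part of such cells in the result was not tested.

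**Figure D2:**
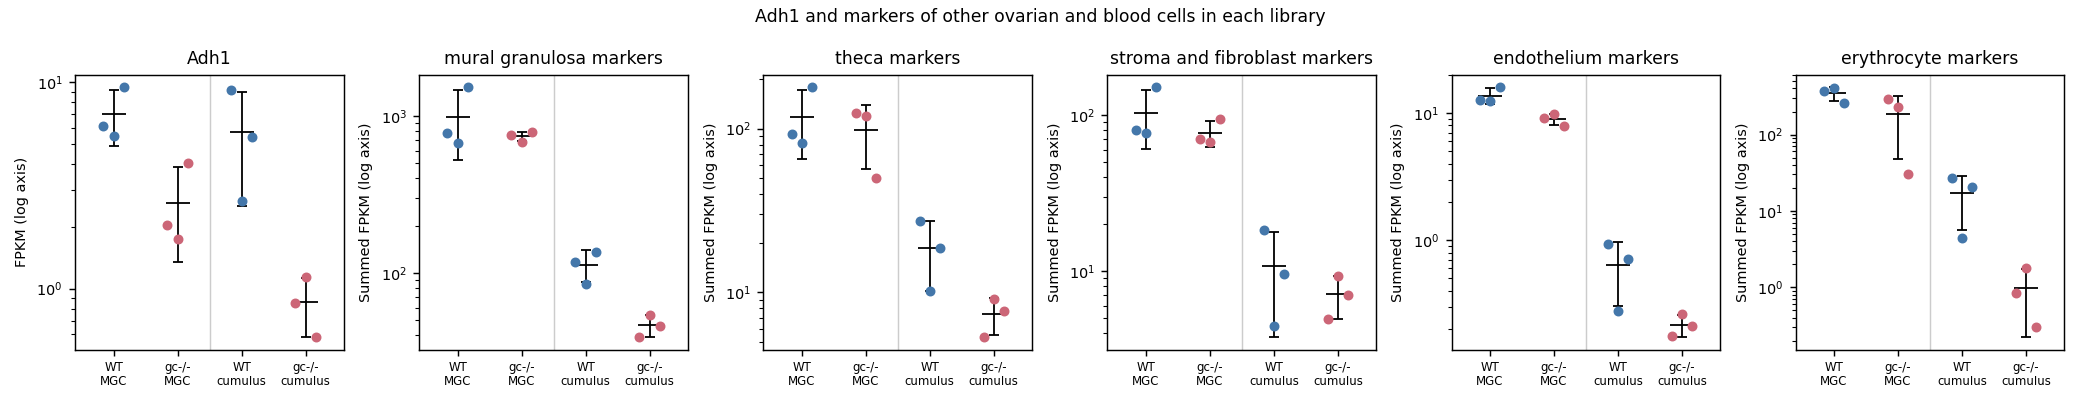
Adh1 (FPKM) and the summed FPKM of 5 marker lists in each library, on logarithmic axes, with the mean and SD of 3 libraries as black bars (WT blue, Sphk1/2gc-/- red). In cumulus cells the mural, theca, endothelium and erythrocyte sums of the knockout libraries all lay below those of WT, whereas the stroma sums overlapped; in MGCs only the endothelium sums of these 5 lists were apart.

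The genes whose profile was most like that of Adh1 were found by the root mean square difference of log2(FPKM + 1) over the 12 libraries, each gene centred on its mean in each cell type. Over 8471 genes the median difference was 0.865. The profile includes the cumulus fall for which Adh1 was picked, so genes near it were bound to be lower there too. This order is a description and no test. Lum (0.290), a collagen-binding proteoglycan of connective tissue, was nearest, and the nearest 5 also held Sparc (0.355), a matrix protein, Colgalt2 (0.371), which glycosylates collagen, and Gm23689 (0.373). Lum was at 4.90, 0.773 and 2.07 FPKM in WT, against 0.455, 0.434 and 0.213 FPKM in Sphk1/2gc-/- cumulus cells. It was at 4.80, 3.97 and 6.66 FPKM in WT, against 2.24, 2.56 and 3.77 FPKM in Sphk1/2gc-/- MGCs, so that the genotypes did not overlap in either cell type. Among the retinoid genes Crabp2 ranked 76 and Aldh1a1 ranked 164 in this order, whereas Rdh10 ranked 7469 and Rara 7407.

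**Figure D3:**
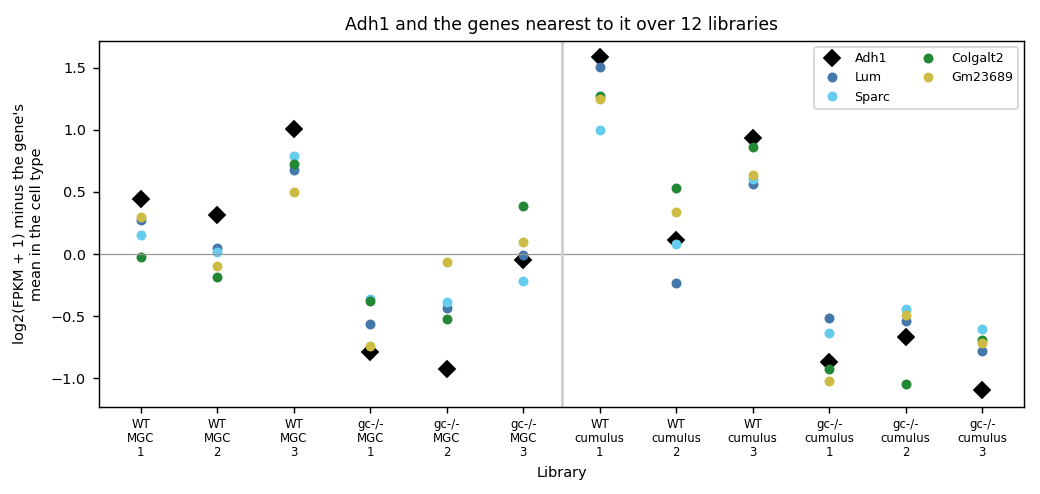
Log2(FPKM + 1) of Adh1 (black diamonds) and of 4 of its 5 nearest genes in each of the 12 libraries, minus the gene's mean in that cell type. Adh1 lay above 0 in all WT libraries and below 0 in all Sphk1/2gc-/- libraries, closest to 0 in Sphk1/2gc-/- MGC library 3.

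The Adh genes lie in 1 cluster on chromosome 3 beside Metap1 and Eif4e. Adh5, which encodes the class III enzyme found in nearly all cells, was the most abundant Adh gene in cumulus cells at 109 ± 11.0 FPKM in WT, against 89.4 ± 7.79 FPKM in Sphk1/2gc-/- (log2 difference −0.28, limma adjusted p = 0.206). Adh7, a class IV enzyme with high activity on retinol, had 65, 29 and 45 reads in WT cumulus cells and 15, 4 and 6 reads in Sphk1/2gc-/-. Its log2 difference of −0.61 passed on adjusted p (limma, 0.0343) and not on fold change. Eif4e, the cap-binding translation factor at the edge of the cluster, differed in the other direction (0.55, limma adjusted p = 0.0240), and Metap1 did not pass (0.28, limma adjusted p = 0.226). Adh4, Adh6a and Adh6b were below the limit for testing in both cell types.

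Rdh10 (chromosome 1, 16105774 to 16133734) encodes the membrane-bound dehydrogenase that carries out the first step in the embryo, and in cumulus cells its difference was opposite in sign to that of Adh1. It was at 2.28, 1.48 and 1.78 FPKM in WT, against 3.71, 3.31 and 4.31 FPKM in Sphk1/2gc-/- cumulus cells. All Sphk1/2gc-/- libraries were above all WT libraries, and the log2 difference of 0.75 (SE 0.163) passed on adjusted p (limma, 0.0151) but stayed under the fold limit of 2. It reached that limit with a pseudocount of 0.1 (1.01, limma adjusted p = 0.0148) and with voom on recovered reads (1.04, limma adjusted p = 0.00926). Its adjusted p (limma) rose above 0.05 with no filter on low values (0.0536), without WT library 2 (0.0669) and without Sphk1/2gc-/- library 3 (0.0597). In MGCs Rdh10 was at 12.3, 11.3 and 10.9 FPKM in WT, against 11.3, 11.8 and 5.19 FPKM in Sphk1/2gc-/-, with the low value in library 3 alone (log2 difference −0.33, limma adjusted p = 0.766; 0.01 without that library). Its order of levels was WT MGCs and Sphk1/2gc-/- MGCs, which overlapped, then Sphk1/2gc-/- and WT cumulus cells, which did not overlap with each other or with the MGCs.

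Of the 19 genes listed for the exchange of retinol and retinal, 10 besides Adh1 were tested in cumulus cells. Dhrs9 and Akr1b8 were called as higher, Rdh11 was called as lower, and Rdh10, Rdh13 and Adh7 passed on adjusted p alone. Of all 12205 genes tested, 4.19% were called as higher and 3.85% as lower, beside 2 and 1 of these 10 genes, a number too small to compare shares. Dhrs9, which oxidises retinol and also steroids, was at 0.624, 0.520 and 0.998 FPKM in WT, against 4.82, 7.33 and 10.9 FPKM in Sphk1/2gc-/- cumulus cells (log2 difference 2.29, SE 0.257, limma adjusted p = 0.00148). Akr1b8, an aldo-keto reductase that can turn retinal back into retinol, rose from 36.2 ± 11.3 to 98.2 ± 14.0 FPKM (1.45, SE 0.237, limma adjusted p = 0.00545).

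Rdh11, which mainly reduces retinal, was at 10.4, 8.18 and 9.44 FPKM in WT, against 4.32, 3.22 and 3.38 FPKM in Sphk1/2gc-/- cumulus cells (log2 difference −1.16, SE 0.160, limma adjusted p = 0.00312). Rdh13, an enzyme of the mitochondria, differed by 0.80 (limma adjusted p = 0.0295). The step was thus made up of genes that differed in opposite directions. Over the tested genes of the list the median log2 difference was −0.05, against −0.06 over all genes tested. In MGCs none of the 12 tested genes of this list was called.

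Aldh1a7 had the largest log2 difference among the retinoid genes tested in cumulus cells (−2.89), followed in size by Dhrs9 (2.29) and Aldh1a1 (−2.24). Aldh1a7 and Aldh1a1 were listed for the second step, from retinal to retinoic acid, and the activity of neither enzyme was measured. The listing of Aldh1a7, a paralog of Aldh1a1, does not show that its enzyme makes retinoic acid. Aldh1a1 (chromosome 19, 20492715 to 20643465, plus strand) encodes the main cytosolic enzyme of this step in many adult tissues. It was at 30.3, 15.6 and 23.5 FPKM in WT, against 5.23, 4.08 and 2.78 FPKM in Sphk1/2gc-/- cumulus cells. Every WT library was above every Sphk1/2gc-/- library, and the log2 difference was −2.24 (SE 0.269, limma adjusted p = 0.00181). Without each library in turn the log2 difference was −2.49 to −2.03 and stayed called. In MGCs Aldh1a1 was at 56.8, 56.1 and 46.7 FPKM in WT, against 35.1, 36.4 and 15.0 FPKM in Sphk1/2gc-/-, with no overlap (log2 difference −0.95, 95% interval −1.73 to −0.17, limma adjusted p = 0.459). Without both libraries numbered 3 it was −0.64 (limma adjusted p = 0.00734, under the fold limit). By level the 4 groups were ordered WT MGCs, Sphk1/2gc-/- MGCs, WT cumulus cells and Sphk1/2gc-/- cumulus cells, and only the middle pair overlapped.

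Aldh1a7, a mouse paralog of Aldh1a1, lies beyond its end on the opposite strand (chromosome 19, 20692953 to 20727562). It was at 18.3, 22.0 and 19.2 FPKM in WT, against 2.39, 1.35 and 1.74 FPKM in Sphk1/2gc-/- cumulus cells. Its log2 difference of −2.89 (SE 0.176, limma adjusted p = 0.000144) was the largest of the retinoid genes called. In MGCs it was at 5.43, 5.68 and 9.39 FPKM in WT, against 5.62, 4.43 and 5.97 FPKM in Sphk1/2gc-/-, which overlapped (−0.28, limma adjusted p = 0.755). WT cumulus cells thus held more Aldh1a7 than WT MGCs, and less Aldh1a1.

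The transcripts Aldh1a1-201 and Aldh1a7-201 were identical at 90.3% of 2044 aligned bases. Stretches of 50 bases of Aldh1a7-201 were found unchanged in Aldh1a1 for 7.49% of positions, and stretches of 150 bases for none. How the counting treated reads that fit both genes is not given in the sources used here, so that a part of either value may come from the other gene. The 2 genes also share sequence before their start sites, shown here because both were called as lower in the same libraries. The lines below give bases 107 to 8 before the RefSeq start site of each gene (GRCm38.p6), with the hexamer TGACCC in capitals, which reads GGGTCA on the other strand.
Aldh1a1, chr19:20601861-20601960, plus strand: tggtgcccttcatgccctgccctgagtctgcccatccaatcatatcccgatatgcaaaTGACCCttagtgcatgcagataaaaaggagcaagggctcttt
Aldh1a7, chr19:20727564-20727663, minus strand: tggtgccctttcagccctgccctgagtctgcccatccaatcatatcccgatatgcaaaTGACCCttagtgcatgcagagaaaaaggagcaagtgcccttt

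These stretches were identical at 94 of 100 bases, including a run of 65. GGGTCA is 1 of 4 spellings searched, on both strands, for the half-site that retinoid receptors bind; the others were AGGTCA (the consensus), AGTTCA (as in Cyp26a1) and GGTTCA (as in Rarb). At least 1 of them stands in 38.6% of 32851 RefSeq promoter windows of 250 bases. Of the 8 genes, 6 have such windows, 11 in all. None holds 2 half-sites in the same direction 1, 2 or 5 bases apart, arrangements found in 0.164%, 0.174% and 0.0883% of all windows. The arrangement with 5 bases between was found in the windows of 2 textbook targets of retinoic acid, Rarb and Cyp26a1. As the spellings searched include those of these 2 genes, this find is no test of the search. Their stretches are shown with the half-sites in capitals.
Rarb, 53 bases before the start site: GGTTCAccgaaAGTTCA
Cyp26a1, 32 bases before the start site, opposite strand: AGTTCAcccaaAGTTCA

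The RNA of both these targets was near 0. Rarb did not exceed 0.0113 FPKM in any of the 12 libraries, and Cyp26a1 had a mean of 0.0786 FPKM in WT and was at 0 in Sphk1/2gc-/- MGCs.

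Aldh1a2 (chromosome 9, 71215789 to 71296243), the enzyme that makes retinoic acid in the early embryo, did not pass the test in either cell type. It was at 0.466, 0.246 and 0.830 FPKM in WT, against 0.211, 0.313 and 0.599 FPKM in Sphk1/2gc-/- cumulus cells (log2 difference −0.13, 95% interval −0.56 to 0.29, limma adjusted p = 0.636). In MGCs it was at 6.00, 5.84 and 4.37 FPKM in WT, against 3.57, 5.69 and 4.15 FPKM in Sphk1/2gc-/- (−0.24, 95% interval −0.71 to 0.24, limma adjusted p = 0.762). The genotypes overlapped in both cell types, and the MGC level exceeded the cumulus level in every library. On the per-length scale Aldh1a1 made up 89.8% to 91.1% of the summed FPKM of Aldh1a1, Aldh1a2 and Aldh1a3 in WT MGCs and 96.1% to 98.4% in WT cumulus cells. The sum was 15.9 to 30.8 FPKM in WT, against 3.88 to 5.56 FPKM in Sphk1/2gc-/- cumulus cells, where the share of Aldh1a1 was 71.7% to 94.1%. In MGCs it was 51.3 to 63.3 FPKM in WT, against 19.4 to 42.5 FPKM in Sphk1/2gc-/-.

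**Figure D4:**
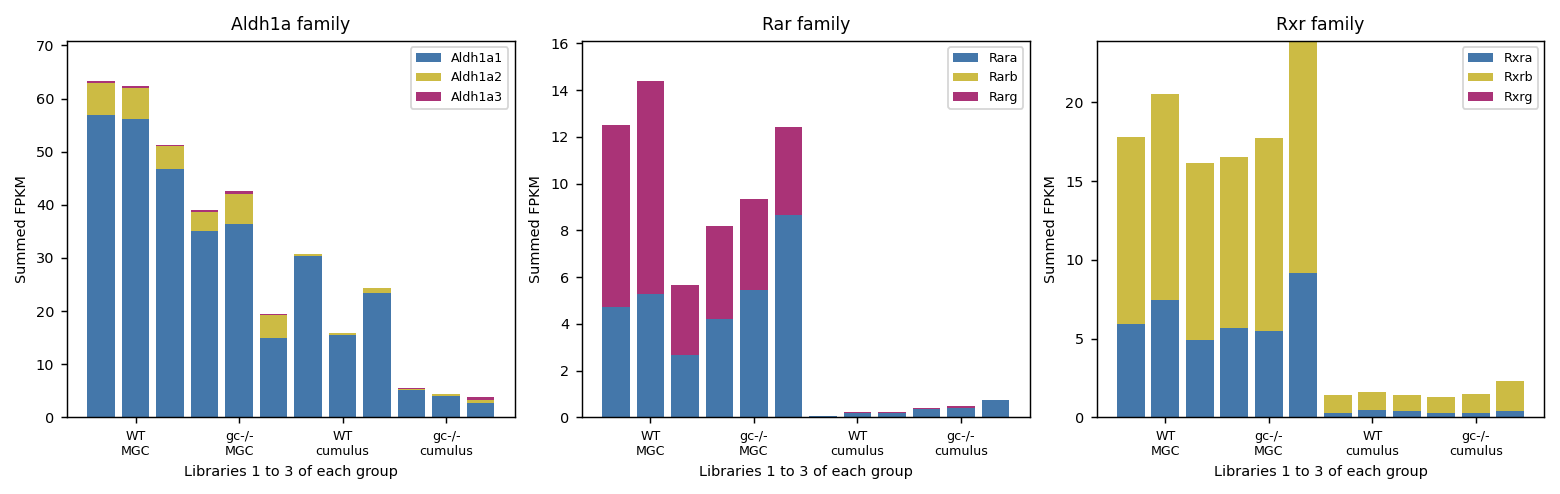
Summed FPKM of the Aldh1a enzymes and of the RAR and RXR receptors in each of the 12 libraries (bars, libraries 1 to 3 of each group from left to right), coloured by gene. Aldh1a1 fills most of the first sum in every library, and the receptor sums of cumulus cells are near the axis.

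Crabp2 (chromosome 3, 87948666 to 87953376), which carries retinoic acid to its receptors, was the most abundant of the 8 genes in cumulus cells. It was at 670, 535 and 744 FPKM in WT, against 228, 385 and 351 FPKM in Sphk1/2gc-/- cumulus cells, without overlap. The log2 difference was −1.03 (SE 0.227, limma adjusted p = 0.0155). It lay at the edge of the fold limit. It was −0.96 with median-ratio scaling and −0.98 with quantile normalization, both under the limit, and without 1 library it was −1.18 to −0.81. It was under the limit without WT library 3 or Sphk1/2gc-/- library 1, and its limma adjusted p was 0.0633 without WT library 1 and 0.0712 with no filter on low values. In MGCs Crabp2 was at 12.3, 14.2 and 18.4 FPKM in WT, against 8.92, 9.02 and 5.78 FPKM in Sphk1/2gc-/-, again without overlap (−0.85, 95% interval −1.37 to −0.33, limma adjusted p = 0.306). Its levels were ordered WT cumulus, Sphk1/2gc-/- cumulus, WT MGCs and Sphk1/2gc-/- MGCs, and no neighbours in this order overlapped.

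Fabp5, a fatty acid binding protein that also carries retinoic acid, fell with it in cumulus cells. It was at 186, 157 and 154 FPKM in WT, against 51.2, 76.1 and 58.4 FPKM in Sphk1/2gc-/- (log2 difference −1.42, SE 0.183, limma adjusted p = 0.00237). Both genes of this list that were tested in cumulus cells were called as lower, Crabp2 only at the edge of the fold limit. Over all genes tested there 3.85% were called as lower, and 2 genes are too few to compare shares. Crabp1 was not tested. In MGCs Fabp5 overlapped between genotypes (−0.23, limma adjusted p = 0.823).

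Cyp26b1 (chromosome 6, 84571414 to 84593908) encodes the main enzyme that clears retinoic acid in the fetal testis. It was at 0.159, 0.234 and 0.554 FPKM in WT, against 0.573, 0.507 and 1.02 FPKM in Sphk1/2gc-/- MGCs, which overlapped (log2 difference 0.37, 95% interval −0.10 to 0.84, limma adjusted p = 0.623). In cumulus cells it had 2, 4 and 5 reads in the WT libraries and 0 in each Sphk1/2gc-/- library, where a count of 0 allows up to 3 reads, and it was not tested. Every MGC library was above every cumulus library. No difference between genotypes could be measured in cumulus cells at this depth.

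The receptors were low in cumulus cells. Genes with many exon bases were often lower there than in MGCs. The median difference of log2(FPKM + 1), WT cumulus cells minus WT MGCs, was −0.29 at 1000 to 2000 exon bases. It was −0.53 below that length and −0.78 at 4000 to 8000 bases. Rara has 4365 exon bases and Rxra 5462. The part of length in these levels was not tested. Rara (chromosome 11, 98927818 to 98974942), the RAR found in most tissues, had 4, 16 and 13 reads in WT and 30, 34 and 61 reads in Sphk1/2gc-/- cumulus cells. All Sphk1/2gc-/- libraries were above all WT libraries, at means of 0.496 ± 0.202 and 0.144 ± 0.0769 FPKM, under the limit for testing; with no such limit the limma adjusted p was 0.205. In MGCs Rara was at 4.74, 5.27 and 2.68 FPKM in WT, against 4.20, 5.45 and 8.66 FPKM in Sphk1/2gc-/-, which overlapped (log2 difference 0.43, 95% interval −0.28 to 1.14, limma adjusted p = 0.712). Rxra (chromosome 2, 27676440 to 27762957), the partner of RAR on DNA, was at 5.96, 7.47 and 4.91 FPKM in WT MGCs, against 5.66, 5.47 and 9.18 FPKM in Sphk1/2gc-/- MGCs (0.11, 95% interval −0.44 to 0.66, limma adjusted p = 0.929). In cumulus cells it was at 0.296, 0.489 and 0.427 FPKM in WT, against 0.253, 0.287 and 0.439 FPKM in Sphk1/2gc-/-, not tested and overlapping. For Rara and Rxra the highest MGC value was that of Sphk1/2gc-/- library 3. Both genes were higher in every MGC library than in any cumulus library.

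Rarg, the other RAR of MGCs, was at 7.79, 9.11 and 2.96 FPKM in WT, against 4.01, 3.87 and 3.78 FPKM in Sphk1/2gc-/- MGCs (log2 difference −0.53, limma adjusted p = 0.696). On the per-length scale Rara made up 36.6% to 47.4% of the RAR sum in WT MGCs and 51.2% to 69.6% in Sphk1/2gc-/- MGCs, with no overlap, so that the leading receptor of the library was Rarg in WT and Rara in Sphk1/2gc-/-. This share was not tested. Rxrb was the most abundant of the 6 receptors in both cell types, at 10.9 to 14.7 FPKM in MGCs and 1.00 to 1.85 FPKM in cumulus cells, and did not differ by the test (limma adjusted p = 0.946 and 0.482). Among 6 coregulators of the receptors, Ncoa3, a coactivator, was higher (0.83, limma adjusted p = 0.0127) and Nrip1, a corepressor, was lower (−0.71, limma adjusted p = 0.0149) in Sphk1/2gc-/- cumulus cells, both under the fold limit.

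**Figure D5:**
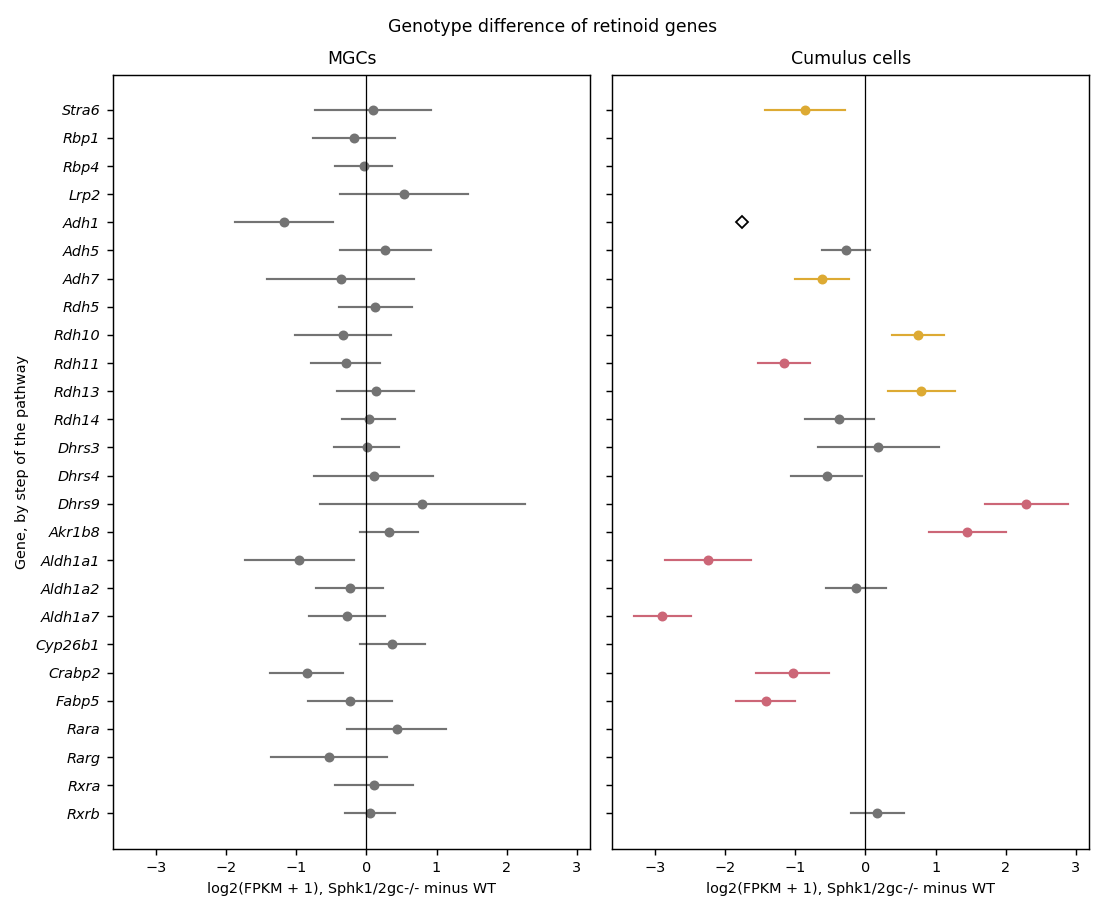
Difference of mean log2(FPKM + 1), Sphk1/2gc-/- minus WT, for the tested genes of retinol uptake, conversion, oxidation, binding, breakdown and reception, in MGCs (left) and cumulus cells (right), with 95% intervals from limma (n = 3 libraries per genotype). Red marks genes called (adjusted p of 0.05 or less and a fold change of 2 or more), yellow those past the adjusted p alone and grey the others; the open diamond is Adh1 in cumulus cells, shown without an interval because it was chosen on this value.

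Over the 8 genes, 0 were called in MGCs, where limma called 0.0393% of 15279 genes (6 in all, 1406 at an unadjusted p of 0.05 or less; 3 with the replicate block). In MGCs 3 of the 8, Adh1, Aldh1a1 and Crabp2, lay below WT in all Sphk1/2gc-/- libraries, against 9.17% of all genes tested, and none lay above, against 7.72%. In cumulus cells 4 of the 7 genes other than Adh1 passed the limit for testing, and 2 of these, Aldh1a1 and Crabp2, were called as lower and none as higher, beside 3.85% and 4.19% of all genes tested. These 2 also lay below WT without overlap, as 24.1% of all genes did, and Rdh10 lay above, as 18.2% did.

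Of 54 retinoid genes in 9 lists, 30 were tested in MGCs, where none was called. Of these, 4 lay below WT without overlap and 0 above, against 9.17% and 7.72% of all genes tested. At an adjusted p alone the count in MGCs was also 0. In cumulus cells 19 were tested besides Adh1, of which 5 were called as lower (Aldh1a1, Aldh1a7, Crabp2, Fabp5 and Rdh11) and 2 as higher (Dhrs9 and Akr1b8), where the shares over all genes were 3.85% and 4.19%. Their median log2 difference was −0.37, against −0.06 over all 12205 genes. Of these 19 genes, 9 lay below WT without overlap and 4 above, against 24.1% and 18.2% of all genes tested. The lists, like the 8 genes, were chosen with earlier results of these data known. Their counts beside the shares are thus a description and test no excess. Stra6, the membrane receptor that takes up retinol and a textbook target of retinoic acid, was at 1.35, 2.18 and 1.88 FPKM in WT, against 1.27, 0.226 and 0.304 FPKM in Sphk1/2gc-/- cumulus cells (−0.86, limma adjusted p = 0.0414, under the fold limit). Of the 12 textbook targets, 3 were tested in cumulus cells, Crabp2 was called as lower, Stra6 passed on adjusted p alone and Dhrs3 did not pass (0.19, limma adjusted p = 0.752). In the remaining lists the most abundant genes were Dgat1 in MGCs and Lpl in cumulus cells for storage of retinyl esters, neither called, and Bco2 for cleavage of carotenoids, which did not exceed 0.184 FPKM.

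Whether the genotype effect differed between the cell types was tested in 1 model of the 12 libraries. It passed for 3.93% of 15869 genes and for 0 of the 7 genes other than Adh1, of which Cyp26b1, Rara and Rxra were under the limit for testing in cumulus cells. The closest was Rdh10, with an effect that was 1.08 log2 units higher in cumulus cells (95% interval 0.33 to 1.83, limma adjusted p = 0.0951). Aldh1a1 differed by −1.29 (95% interval −2.29 to −0.29, limma adjusted p = 0.131) and Crabp2 by −0.19 (95% interval −0.92 to 0.54, limma adjusted p = 0.792). Without the 2 MGC libraries numbered 3, Rdh10 (0.77, limma adjusted p = 0.0345) and Aldh1a1 (−1.60, limma adjusted p = 0.0240) passed. So did Cyp26b1 (−0.42, limma adjusted p = 0.0226), with too few cumulus reads to measure an effect. Passes rose over the whole table in that fit, to 1605 higher and 869 lower of 15973 genes, against 389 and 235 with all libraries. Among the other retinoid genes Aldh1a7 passed (−2.62, 95% interval −3.25 to −1.98, limma adjusted p = 0.00272), with a log2 difference of −2.65 without the libraries numbered 1 and −2.43 without those numbered 2. Neither of these smaller fits called any gene of the whole table by limma's adjusted p (0 in each, with 2942 and 1523 genes at an unadjusted p of 0.05 or less), so that they bear on no single gene.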

How the data were processed

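The authors deposited FPKM values, in 1 table for each cell type. HISAT2 and GRCm38 are named in the submitters' processing notes; versions, the counting tool and filters are not given in the sources used here. No columns were left unused (0). The 8 genes, the gene lists and the tests were chosen with earlier results of these data known, and other genes were named by a rule: genes of the lists that were called, the most abundant gene of each list, the Adh cluster, the targeted genes and the 5 genes nearest to Adh1, 1 of which is not reported here.

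Gene names and exon lengths came from GENCODE M21 (GRCm38). FPKM multiplied by exon length fell on whole reads for 90.6% to 92.1% of values above 0 (tolerance 0.02 reads), which gave the reads and depth printed; levels at 3 reads or fewer carry no fold. Counting error is the only error these reads show. limma 3.58.1 (R 4.3.3, variance trend) was run on log2(FPKM + 1) in each cell type, over genes whose mean reached 0.5 FPKM in either genotype. A call needed a Benjamini-Hochberg adjusted p up to 0.05 together with a fold change of 2 or above. The difference between cell types was tested as an interaction. The fit was tested on simulated data. After removal of genotype means, libraries of the same number correlated at 0.220, 0.158 and 0.224 in MGCs, which was taken as a possible pairing. In cumulus cells they correlated at −0.148, −0.0511 and 0.115, which was not. Libraries of different numbers were not compared, so a pairing is not established. Tests are without the replicate block except where it is named. Promoter windows are RefSeq's (GRCm38.p6), and transcripts were aligned with Biopython 1.88. Alternatives were another pseudocount, no filter, median-ratio scaling, quantile normalization, the replicate block, voom on recovered reads, adjusted p alone and leaving out libraries.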

Additional observations from a re-analysis of the deposited data

Results flagged for a closer look

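The effect of genotype on Aldh1a7, a paralog of Aldh1a1 whose enzyme activity was not measured, differed between the cell types. Its log2 difference in cumulus cells minus that in MGCs was −2.62 (95% interval −3.25 to −1.98, limma interaction, adjusted p = 0.00272). All 3 Sphk1/2gc-/- cumulus libraries were at 1.35 to 2.39 FPKM, below all WT cumulus libraries, whereas the MGC libraries of the genotypes overlapped.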

How the results depend on the processing

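In cumulus cells 2 retinoid genes were higher and 5 lower. The counts were 3 higher and 7 lower with a pseudocount of 0.1 and with voom, and 4 and 7 by adjusted p alone. With no filter, median-ratio scaling or quantile normalization they were 2 higher and 4 lower. Leaving out 1 library gave 4 to 5 lower and 2 higher. Without WT cumulus library 3 the counts were 2 and 4. In MGCs no retinoid gene was called in the fit of all libraries or with another pseudocount, filter, scaling or voom. Leaving out 1 MGC library gave 0 to 1 lower (1 without Sphk1/2gc-/- library 3) and 0 higher, and leaving out both libraries numbered 3 gave 2 higher, Dhrs9 (1.31) among them, and 1 lower (Adh1). Without Sphk1/2gc-/- library 3 and without both libraries numbered 3, calls over all genes rose as well, as given for Adh1. For the interaction (1 lower, 0 higher), 2 were lower with median-ratio scaling and 2 with quantile normalization, where Fabp5 also passed (−1.12 and −1.08). Leaving out the libraries of 1 number gave 0 to 3 lower and 0 to 2 higher, and leaving out the MGC libraries numbered 3 gave 8 lower and 2 higher, Cyp26b1 among the lower although its cumulus reads were too few to measure an effect. Over all genes that last fit passed 1605 as higher and 869 as lower of 15973.

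With the replicate block, 1 retinoid gene was higher in the interaction (Akr1b8, 1.13, limma adjusted p = 0.0208). In cumulus cells, where the numbers were not taken to pair libraries, the block left 2 higher and 5 lower. The block changed no other call of the retinoid genes read here.

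Some differences near 0 changed sign. Leaving out 1 library, Rxra in MGCs ranged from −0.10 to 0.24 and Rdh10 from −0.51 to 0.010; without both libraries numbered 3, Rxra was −0.23 and Rara −0.050. In the interaction with a pseudocount of 0.1, Aldh1a2 was −0.059 and Rara 0.78. Without the MGC libraries numbered 3, Rara was 0.43 and Rxra 0.14. Leaving out the libraries of 1 number, Aldh1a2 ranged from −0.012 to 0.22, Crabp2 from −0.50 to 0.28, Rara from −0.33 to 0.34 and Rxra from −0.38 to 0.097. The cause was not tested. Adh1 in cumulus cells was −2.49 with a pseudocount of 0.1 and −2.60 with voom, as both shrink weak values less. At 3 libraries per group and 25 to 50 reads of Adh1 in the knockout cumulus libraries, small differences could not be resolved.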
